A study of Mus musculus with 12 samples.

Results

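The genes described here carry the IL-4 signal in macrophages, from the receptor at the cell surface to the feedback suppressors. They are the 3 receptor chains Il4ra, Il13ra1 and Il2rg, the 3 kinases Jak1, Jak3 and Tyk2, the transcription factor Stat6, and the 3 suppressors Socs1, Socs3 and Cish. The members were chosen by gene symbol, all 10 were among the 14098 genes of the expression table, and all 10 passed the filter that left 11194 genes for testing (at least 1 TPM in at least 2 libraries). TPM is a level per unit of transcript length, scaled so that all libraries have one common sum, so levels of different genes can be compared within a library.

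RNA was sequenced from bone marrow-derived macrophages (BMDM), which are macrophages grown in culture from mouse bone marrow. The marrow came from male and female C57Bl/6 mice 8 to 10 weeks old, either WT or Camkk2-/- (labelled KO, without the calcium-dependent kinase CaMKK2), and was used from day 4 of a culture in medium conditioned by L929 cells. How the sexes were spread over the libraries was not examined, and the part of sex in the results was not tested. The BMDM were embedded in a hydrogel of collagen and hyaluronic acid that stayed soft (soft), stayed soft with added IL-4 (soft+IL-4), or was stiffened 24 h after embedding by UV light with the photoinitiator Irgacure (stiff). The gels were kept for 48 h and then dissolved by collagenase IV for 1 h, which every group shared. The UV light and the photoinitiator are named for stiffening and the stiff gel was also made with more collagen, per the methods of the study. In these libraries none of these can be told apart from stiffness. The study reports separate controls, by surface markers, in which neither the UV exposure nor more collagen without crosslinking affected the phenotype of the macrophages. Each of the 6 groups had 2 biological replicates, which makes 12 libraries.

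IL-4 binds the chain encoded by Il4ra, which then pairs with the common gamma chain (Il2rg) in the type I receptor or with Il13ra1 in the type II receptor, the form that also binds IL-13. JAK1, JAK3 and TYK2 are attached to these chains and phosphorylate STAT6, which enters the nucleus and switches on the genes of alternatively activated macrophages. Among the genes that STAT proteins switch on are those of the SOCS family, whose products dampen the same receptors, SOCS1 mainly by binding the kinases and CIS (encoded by Cish) mainly at receptor chains.

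Several libraries stood apart before any comparison was made. The level of Camkk2 in TPM was 44.2 in WT soft 1 and 11.7 in WT soft 2, 46.6 in KO soft 1 and 11.5 in KO soft 2, 30.5 and 29.8 in the 2 libraries of WT soft+IL-4, 11.5 and 8.54 in those of KO soft+IL-4, 23.3 and 23.7 in those of WT stiff, and 37.7 in KO stiff 1 and 10.0 in KO stiff 2. The libraries labelled WT soft 2, KO soft 1 and KO stiff 1 therefore went against their genotype label, so the directions between genotypes below are between labels. Over the 11194 genes, the library labelled WT stiff 2 was nearest to WT soft+IL-4 2, with a median absolute difference of 0.0774 in log2(TPM + 1) and 36 genes at least 2-fold apart, and its difference from WT stiff 1 was 0.317, with 1125 genes at least 2-fold apart. Some other pairs of libraries numbered 2 were nearly as close. WT soft 2 and KO soft 2 differed by 0.0789, with 44 genes at least 2-fold apart. KO soft+IL-4 2 and WT stiff 2 differed by 0.0887, with 54 such genes. WT soft 2 and WT soft+IL-4 2 were further apart, at 0.243. The library labelled WT stiff 1 differed from each of the other 11 libraries by a median of 0.292 to 0.333. Where leaving out one of these libraries changes a result, the value without it is given beside it.

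**Figure D1:**
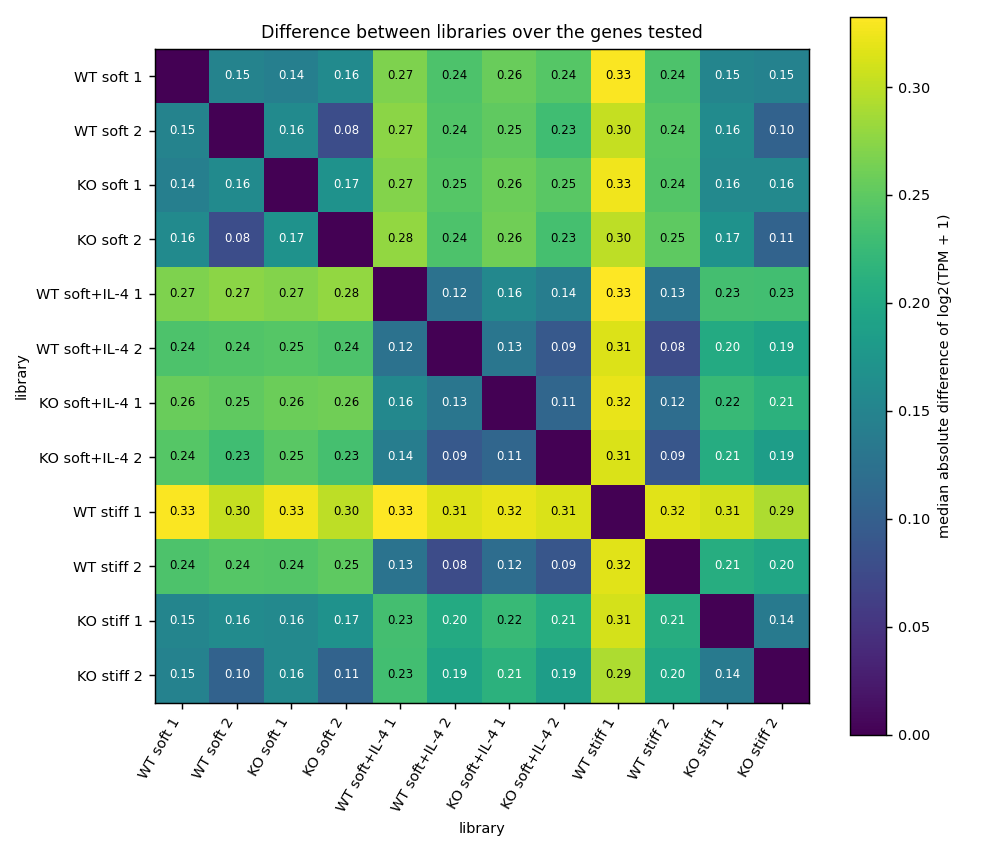
Median absolute difference of log2(TPM + 1) over the 11194 genes tested, for each pair of the 12 libraries (rows and columns). WT stiff 1 stands apart from every other library, and WT stiff 2 lies nearest to WT soft+IL-4 2 (0.0774).

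The 7 macrophage markers summed to 23200 to 57200 TPM in every library. Their sums were lower in the soft+IL-4 libraries (23400 to 25400 TPM) and the WT stiff libraries (23200 to 24600 TPM) than in the soft libraries (50700 to 57200 TPM), and the KO stiff libraries were at 45400 to 48000 TPM. Of the 7 markers, 3 were called as lower with IL-4 (average of the genotypes), while 4.35% of all genes were called. Against soft, 2 were called as lower in WT stiff (3.97% of all genes) and 0 in KO stiff (0.0447%). The part of these falls in the results below was not tested. The lists of neutrophils, dendritic cells, eosinophils, mast cells, NK cells, B cells, T cells, erythroid cells and fibroblasts each summed to at most 26.2 TPM. The dendritic cell list summed to 10.6 to 14.1 TPM in the soft+IL-4 libraries, 13.3 to 21.1 in WT stiff, 8.07 to 8.88 in KO stiff and 4.34 to 10.9 in soft. The KO stiff sums thus lay within the soft range. Of the 4 genes of this list that were tested, 1 was called with IL-4 (average of the genotypes), while 4.35% of all genes were. The part of this list in the results below was not tested. Cd2 of the T cell list was at 14.97 TPM in WT stiff 1 and at most 2.04 TPM in each other library. In bulk RNA, fewer cells of a type and less RNA per cell cannot be told apart.

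Sequences near the start sites of the 3 suppressors are shown because they include Socs1 and Cish, whose levels spanned the widest fold range of the 10 genes. They come from RefSeq on GRCm38.p6 (mm10), in which the window of 300 bases around the start (250 before it and 50 after) was found for all 10 members. The palindrome TTCNNNGAA, to which STAT dimers bind, occurred in 8.3% of all 32851 promoters, the wider form TTCNNNNGAA that STAT6 prefers in 6.95%, and GAAANNGAAA, the core of an interferon response element, in 3.44%, with both strands searched. Socs1 (GENCODE vM21, chr16:10782240-10785536, minus strand) held 2 overlapping GAAANNGAAA matches, in capitals in the 250 bases before its start, chr16:10785537-10785786, minus strand.
Socs1: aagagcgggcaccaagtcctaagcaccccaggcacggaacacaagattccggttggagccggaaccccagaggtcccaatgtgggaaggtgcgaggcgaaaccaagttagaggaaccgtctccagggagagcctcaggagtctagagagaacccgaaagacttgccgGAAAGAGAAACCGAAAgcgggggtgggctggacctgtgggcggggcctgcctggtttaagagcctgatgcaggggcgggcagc
Cish (chr9:107296026-107302784, plus strand) held TTCNNNGAA 2 times, in capitals in the 30 bases chr9:107296655-107296684, plus strand, the first match beginning at the RefSeq start, which lies inside the GENCODE gene. Socs3 (chr11:117966079-117970047, minus strand) held it once, in capitals in the 30 bases chr11:117969497-117969526, minus strand, 154 bases before the RefSeq start.
Cish: agttTTCCTGGAAagTTCTTGGAAatctgt
Socs3: ccagccTTCTTAGAAgggaggggggggaaa
No member's window held TTCNNNNGAA, and the other 7 held none of the 3 motifs. A match is a string of letters and not a measured binding site.

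IL-4 on the soft gel changed 2 of the 3 suppressors and 1 receptor chain, and the fitted changes of the other genes were under 2-fold. Of the 10 genes, Socs1 and Cish rose and Il13ra1 fell in the comparison of the 4 soft+IL-4 with the 4 soft libraries, averaged over the genotypes (limma, adjusted p under 0.05 and at least 2-fold), while 4.35% of the 11194 genes were called. Each genotype alone gave the same 3 genes, where 3.76% (WT) and 3.65% (KO) of all genes were called. The ranges of the 4 and the 4 libraries did not overlap for 7 of the 10 genes, as for 36.9% of all genes tested. For a single gene the exact permutation test of 4 against 4 libraries cannot go below p = 0.0286 (two-sided), which these 7 genes reached.

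Socs1 had 11.7 and 5.08 TPM in WT soft and 7.76 and 4.87 TPM in KO soft, and with IL-4 it had 158 and 123 TPM in WT and 133 and 127 TPM in KO. Every soft+IL-4 library lay above 100 TPM and every soft library below 12 TPM. The log2 fold change of TPM + 1 was 4.10 ± 0.22 (SE, adjusted p = 4.16e-06 by limma, n = 4 against 4), which is 17.1-fold. Cish had 0.903 and 1.68 TPM in WT soft and 3.02 and 1.15 TPM in KO soft, and with IL-4 it had 36.4 and 39.5 TPM in WT and 37.7 and 46.8 TPM in KO. The soft libraries were close to the limit of the filter, and no soft+IL-4 library came near them. The fitted change of Cish was 3.99 ± 0.26 on the log2 scale (SE, adjusted p = 9.83e-06 by limma), or 15.9-fold on TPM + 1 and understates the change of a gene this low.

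Socs3, which mainly restrains receptors that signal through gp130, took the opposite direction. It had 4.63 and 7.85 TPM in WT soft and 5.75 and 7.65 TPM in KO soft, and with IL-4 it had 2.73 and 2.34 TPM in WT and 4.58 and 2.63 TPM in KO. The groups did not overlap, although KO soft+IL-4 1 and WT soft 1 were separated by less than 0.1 TPM. The log2 fold change of −0.88 ± 0.27 had an adjusted p of 0.0400 by limma and missed the 2-fold limit.

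Of the receptor chains, Il13ra1 (chrX:36112110-36171259, plus strand) was the lowest and the one that was called. It had 6.04 and 8.00 TPM in WT soft and 5.73 and 8.11 TPM in KO soft, and with IL-4 it had 2.79 and 2.30 TPM in WT and 1.73 and 2.59 TPM in KO. All 4 soft+IL-4 libraries were below all 4 soft libraries, and the log2 fold change was −1.25 ± 0.15 (SE, adjusted p = 0.000416 by limma). In WT alone it fell by 1.17 on the log2 scale (adjusted p = 0.0084 by limma), and without WT soft 2 the value was −0.995 with an adjusted p of 0.0786, and without WT soft+IL-4 2 it was −1.07 with an adjusted p of 0.0646. In KO alone it fell by 1.33 (adjusted p = 0.00451 by limma), and without KO soft+IL-4 1 the value was −1.13 with an adjusted p of 0.0541. Without the 3 libraries that go against their Camkk2 label, the average over the genotypes was still called and neither genotype alone was (adjusted p = 0.172 in WT and 0.0562 in KO, limma).

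Il4ra (chr7:125552120-125579474, plus strand), which binds the cytokine itself, had 28.5 and 40.5 TPM in WT soft and 31.7 and 39.8 TPM in KO soft, and with IL-4 it had 23.7 and 25.5 TPM in WT and 28.4 and 29.2 TPM in KO. The values overlapped between WT soft 1 and KO soft+IL-4. The log2 fold change was −0.37 ± 0.14 (adjusted p = 0.0871 by limma), with a 95% interval of −0.69 to −0.06. Il2rg (chrX:101264378-101268255, minus strand) was the most abundant of the 3 chains per length, at 274 to 319 TPM in the 4 soft libraries and 208 to 265 TPM in the 4 soft+IL-4 libraries. The ranges did not overlap, but the log2 fold change was only −0.33 ± 0.19 (adjusted p = 0.255 by limma). Its gene model shares its strand with Gm20489, so that reads could be assigned to either. As Il13ra1 had the widest fold range of the 3 chains, the ratio of Il2rg to Il13ra1 in TPM was 37.9 to 47.8 in the soft libraries and 74.8 to 136 in the soft+IL-4 libraries.

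The kinases and Stat6 varied little. Jak1 (chr4:101152367-101265282, minus strand) was at 69.3 to 81.2 TPM over all 12 libraries, a range of 1.17-fold from lowest to highest, and its log2 fold change with IL-4 was −0.08 ± 0.07 (adjusted p = 0.458 by limma, 95% interval −0.23 to 0.08). Tyk2 (chr9:21104068-21131243, minus strand) was at 33.0 to 41.6 TPM, and its change was −0.13 ± 0.07 (adjusted p = 0.246 by limma). Jak3 (chr8:71676296-71690575, plus strand), the partner of the common gamma chain, was lower and more scattered, at 8.95 to 17.0 TPM, with a change of −0.19 ± 0.21 (adjusted p = 0.569 by limma). It overlaps Insl3 on the same strand. All 3 kinases thus had 95% intervals within 2-fold.

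Stat6 (chr10:127642986-127660957, plus strand) had 103 and 112 TPM in WT soft and 114 and 113 TPM in KO soft, and with IL-4 it had 93.4 and 92.4 TPM in WT and 98.7 and 94.1 TPM in KO. Each soft+IL-4 library was below each soft library, by a small margin. The log2 fold change of −0.22 ± 0.07 had an adjusted p of 0.0399 by limma, and its 95% interval of −0.37 to −0.07 lay well inside 2-fold. With Stat6 nearly level, the ratio of Socs1 to Stat6 in TPM went from 0.0433 to 0.113 in the soft libraries to 1.33 to 1.70 in the soft+IL-4 libraries.

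**Figure D2:**
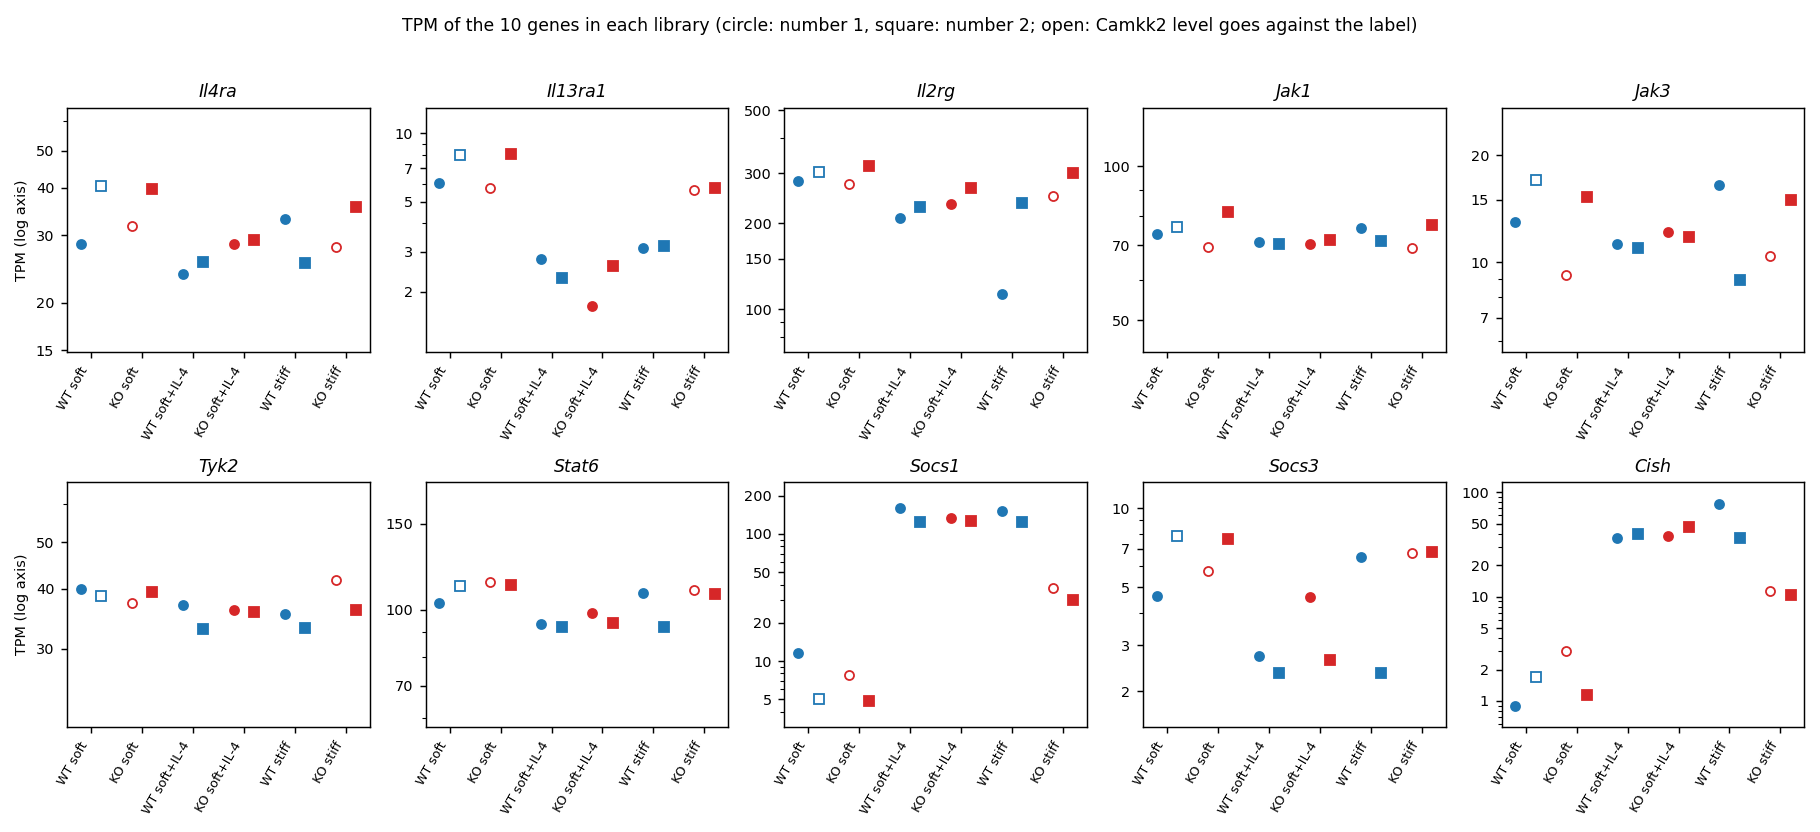
TPM on a log axis of the 10 genes in the 12 libraries by group (blue WT, red KO, circles number 1, squares number 2, open symbols the 3 libraries whose Camkk2 level goes against the label). Socs1 and Cish are low in soft, high in soft+IL-4 and WT stiff and between them in KO stiff, while Jak1 stays between 69.3 and 81.2 TPM.

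The IL-4 responses of the 2 genotype labels could not be separated. The test of the difference between them called 0 of the 10 genes and 0.0% of all genes (limma, 165 genes at an unadjusted p under 0.05, none of them a member). For Socs1 the KO response minus the WT response was 0.19 on the log2 scale (95% interval −0.82 to 1.20), and for Cish it was −0.24 (95% interval −1.40 to 0.92). These intervals still hold differences of about 2-fold. Directly between genotypes, 0 of the 10 genes and 0.0% of all genes were called on the soft gel (limma, 130 genes at an unadjusted p under 0.05, 0 members) and 0 of the 10 and 0.0% with IL-4 (233 genes, 0 members). On the soft gel both labels held a library with high Camkk2 and a library with low Camkk2. The comparison of labels there, and the difference of IL-4 responses that uses it, therefore cannot decide whether Camkk2 matters for these genes.

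Stiffening of the gel, with no IL-4 named in the labels of those samples, changed the same 2 suppressors in WT BMDM. In WT stiff against WT soft, Cish and Socs1 rose, 2 of the 10 genes, while 3.97% of all genes were called. Socs1 measured 151 and 123 TPM in WT stiff, in the range of the soft+IL-4 libraries, and its log2 fold change from soft was 3.97 ± 0.32 (SE, adjusted p = 9.88e-05 by limma, n = 2 against 2). Cish was at 77.7 and 36.8 TPM, and WT stiff 1 was above every other library of the study while WT stiff 2 lay within the soft+IL-4 range. Its log2 fold change was 4.59 ± 0.36 (adjusted p = 9.88e-05 by limma). Without WT stiff 2, which is nearest to the IL-4 libraries, the values were 4.11 for Socs1 and 5.12 for Cish, and without WT stiff 1 they were 3.82 and 4.06, each still called with the lone library taken to vary like the others. In a model of the 4 WT soft and WT stiff libraries alone both had an adjusted p of 0.0604 and 0 of all genes were called. The comparisons with soft share their soft libraries, so the rise with IL-4 and the rise with stiffening are not independent of each other.

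The other members were not called in WT stiff. Il13ra1 was at 3.11 and 3.19 TPM, below all 4 soft libraries, and its log2 fold change of −0.94 ± 0.21 had an adjusted p of 0.0228 by limma without reaching 2-fold. Il2rg measured 113 and 236 TPM in WT stiff, and WT stiff 1 was the lowest of the 12 libraries. Its log2 fold change was −0.84 ± 0.27 (adjusted p = 0.0892 by limma) with both libraries, and it was called at −1.37 without WT stiff 2 (adjusted p = 9.62e-05), so that this value rests on WT stiff 1. Jak3 was at 16.5 and 8.95 TPM, and its soft and soft+IL-4 values overlapped, so it places these libraries with neither. Il4ra was at 33.1 and 25.4 TPM and Socs3 at 6.51 and 2.36 TPM. The first of each pair lay with the soft libraries and the second within or below the range of the soft+IL-4 libraries. Stat6, at 108 and 92.3 TPM, divided in the same way.

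Set directly against soft+IL-4 in WT, the stiff libraries gave 0 of the 10 genes and 0.0% of all genes called (limma, 557 genes at an unadjusted p under 0.05, 0 members). The 95% interval of the difference was −0.75 to 0.68 for Socs1 and −0.33 to 1.31 for Cish on the log2 scale, so a difference of 2-fold lies outside it for Socs1 and inside it for Cish. Without WT stiff 2, the difference from soft+IL-4 was 1.09 for Socs3, 1.02 for Cish and −0.94 for Il2rg. Without WT stiff 1 these differences were −0.07, −0.04 and 0.12.

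In KO BMDM no member was called on the stiff gel. Socs1 was at 37.3 and 30.5 TPM in KO stiff and Cish at 11.3 and 10.4 TPM. Both libraries lay above every soft library and below every soft+IL-4 and WT stiff library for both genes. The library labelled KO stiff 1 had 37.7 TPM of Camkk2 and KO stiff 2 had 10.0 TPM, but their Socs1 and Cish values were close together. Against KO soft the log2 fold change was 2.27 ± 0.32 for Socs1 (adjusted p = 0.0559 by limma) and 2.01 ± 0.36 for Cish (adjusted p = 0.184 by limma), and 0 of the 10 genes and 0.0447% of all genes, 5 genes, were called (295 genes at an unadjusted p under 0.05, 2 of them members). Without either WT stiff library, which enter this comparison only through the shared variance, both genes were called with an adjusted p of 0.0212, and without either WT soft library Socs1 was (adjusted p = 0.0155). On the log2 scale the KO stiff libraries had moved 57.6% and 50.9% of the way from the KO soft mean to the KO soft+IL-4 mean for Socs1, and 53.2% and 50.5% for Cish. The WT stiff libraries had moved 103% and 95.6% of the corresponding way for Socs1 and 125% and 98.9% for Cish.

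Il13ra1 was at 5.61 and 5.71 TPM in KO stiff, just below the lowest soft library at 5.73 TPM. The KO stiff libraries had moved 18.4% and 16.8% of the way to the KO soft+IL-4 mean, against 81.4% and 78.9% in WT. The fitted change of Il13ra1 from KO soft was small against its error, at −0.23 ± 0.21 (SE, unadjusted p = 0.30 by limma). An intermediate response of Il13ra1 in KO stiff was therefore not shown. Averaged over the genotypes, stiff against soft called Socs1 (3.12 ± 0.22, adjusted p = 9.39e-05 by limma) and Cish (3.30 ± 0.26, adjusted p = 0.000139), 2 of 10 genes against 1.35% of all genes. Ranges of 4 stiff and 4 soft libraries did not overlap for these genes and Il13ra1, 3 of 10, as for 8.84% of all genes, each at the smallest exact permutation p of 0.0286.

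**Figure D3:**
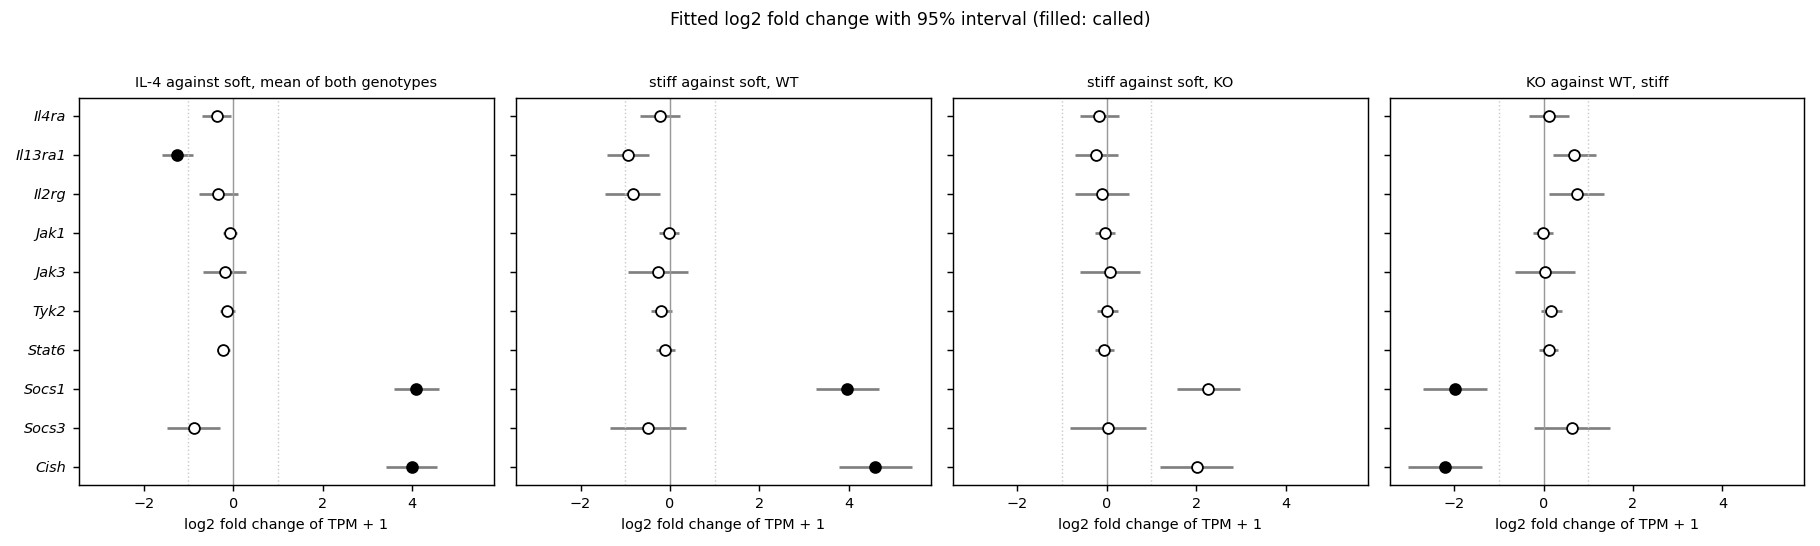
Fitted log2 fold change of TPM + 1 (x axis) with its 95% interval for the 10 genes (y axis) in 4 comparisons, filled where called. Socs1 and Cish lie near 4 with IL-4 and in WT stiff, near 2 in KO stiff and near −2 between the genotypes on the stiff gel, and the kinases and Stat6 lie near 0 throughout.

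Between the genotypes on the stiff gel, Cish and Socs1 were lower in the libraries labelled KO, 2 of the 10 genes, while 1.98% of all genes were called. The difference was −2.21 ± 0.36 for Cish (adjusted p = 0.00962 by limma, n = 2 against 2) and −1.98 ± 0.32 for Socs1 (adjusted p = 0.00806), about 4.61-fold and 3.96-fold. For both genes each KO stiff library was below each WT stiff library. Without KO stiff 1, whose Camkk2 goes against its label, Socs1 was still called (−2.13, adjusted p = 0.0488 by limma) and Cish was not (−2.26, adjusted p = 0.0670). Without KO stiff 2 neither was called (adjusted p = 0.0772 for Socs1 and 0.0785 for Cish). Without WT stiff 2 the differences were −2.13 for Socs1 and −2.73 for Cish, both called, and Il2rg was called as higher in KO by 1.27 (adjusted p = 0.000174). In a model of the 4 stiff libraries alone the adjusted p was 0.205 for Socs1 and 0.266 for Cish, and 0 genes were called.

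The other 8 genes were not called between the genotypes on the stiff gel. Il13ra1 was 0.68 ± 0.21 higher in KO (adjusted p = 0.118 by limma) and Il2rg 0.74 ± 0.27 higher (adjusted p = 0.185), and for Il2rg the difference was 1.14 between the libraries numbered 1 and 0.34 between those numbered 2. Il4ra differed by 0.12 ± 0.20 and Stat6 by 0.12 ± 0.09, and their 95% intervals of −0.33 to 0.56 and −0.09 to 0.33 lay within 2-fold. The test of whether the stiff response itself differed between genotypes also used the soft libraries, where both labels held high and low Camkk2. It called 0 of the 10 genes and 0.67% of all genes (limma, 1219 genes at an unadjusted p under 0.05, 3 of them members). Cish came nearest, with a KO response 2.59 lower on the log2 scale (adjusted p = 0.0584 by limma, 95% interval −3.75 to −1.43), followed by Socs1 (−1.69, adjusted p = 0.150, 95% interval −2.70 to −0.69). Without WT stiff 2 both were called (adjusted p = 0.00144 for Cish and 0.0354 for Socs1), and without WT stiff 1 Cish alone was (−2.06, adjusted p = 0.0397).

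Socs1 and Cish moved together across the study. Pearson's r of their log2(TPM + 1) was 0.97 over the 12 libraries, which fall into separate groups, so r mostly restates the order of the groups. The ratio of Socs1 to Cish in TPM was 2.71 to 4.36 in the soft+IL-4 libraries and 2.93 and 3.31 in KO stiff, and it was 1.94 in WT stiff 1 and 3.35 in WT stiff 2. In the soft libraries, where Cish was at 0.903 to 3.02 TPM, it was scattered from 2.57 to 12.9.

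**Figure D4:**
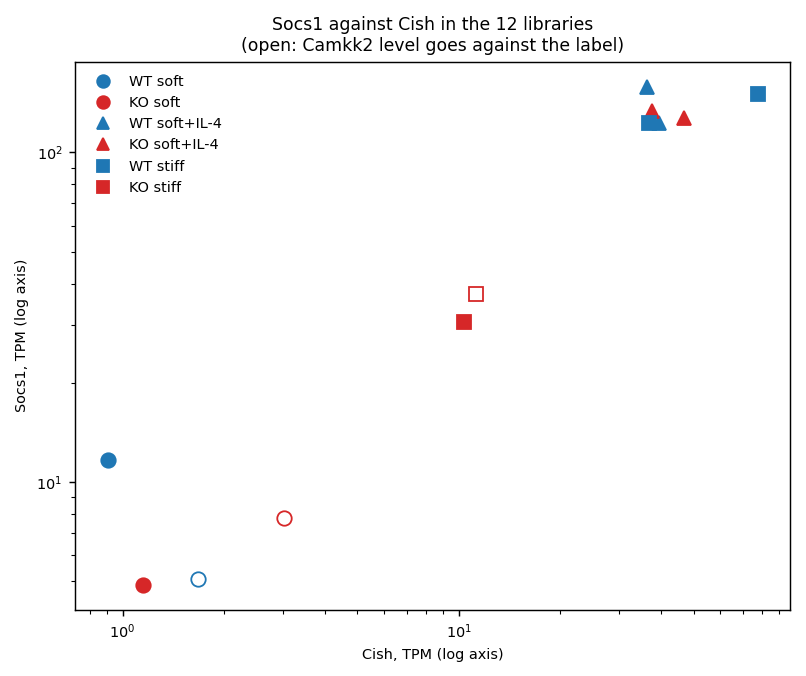
Socs1 against Cish in TPM, both on log axes, with 1 symbol for each of the 12 libraries (colour genotype, shape condition, open symbols the 3 libraries whose Camkk2 level goes against the label). The 4 soft libraries lie at the lower left, the 2 KO stiff libraries between, and the soft+IL-4 and WT stiff libraries at the upper right.

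Within the SOCS family, Socs2 showed the same order of the groups as Socs1 and Cish. Socs2, which restrains growth hormone signalling, was at 0.464 to 1.31 TPM in the soft libraries, at 8.90 to 10.5 TPM in the soft+IL-4 libraries, at 9.77 and 8.59 TPM in WT stiff and at 1.88 and 2.73 TPM in KO stiff. It rose with IL-4 by 2.64 ± 0.17 (adjusted p = 8.91e-06 by limma) and in WT stiff by 2.47 ± 0.24 (adjusted p = 0.000275), and it was lower in KO stiff than in WT stiff by a log2 difference of −1.63 ± 0.24 (adjusted p = 0.00529). Without KO stiff 1 that difference of Socs2 was −1.45 and not called (adjusted p = 0.0548), nor was it without the 3 libraries that go against their Camkk2 label (adjusted p = 0.0781). Socs6 rose with IL-4 by 1.15 ± 0.10 (adjusted p = 6.10e-05), from 18.9 to 24.5 TPM in soft to 49.7 to 51.4 TPM, and measured 38.4 and 48.5 TPM in WT stiff. Socs4, Socs5 and Socs7 were not called in any of the 3 comparisons, and their values overlapped between the conditions.

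**Figure D5:**
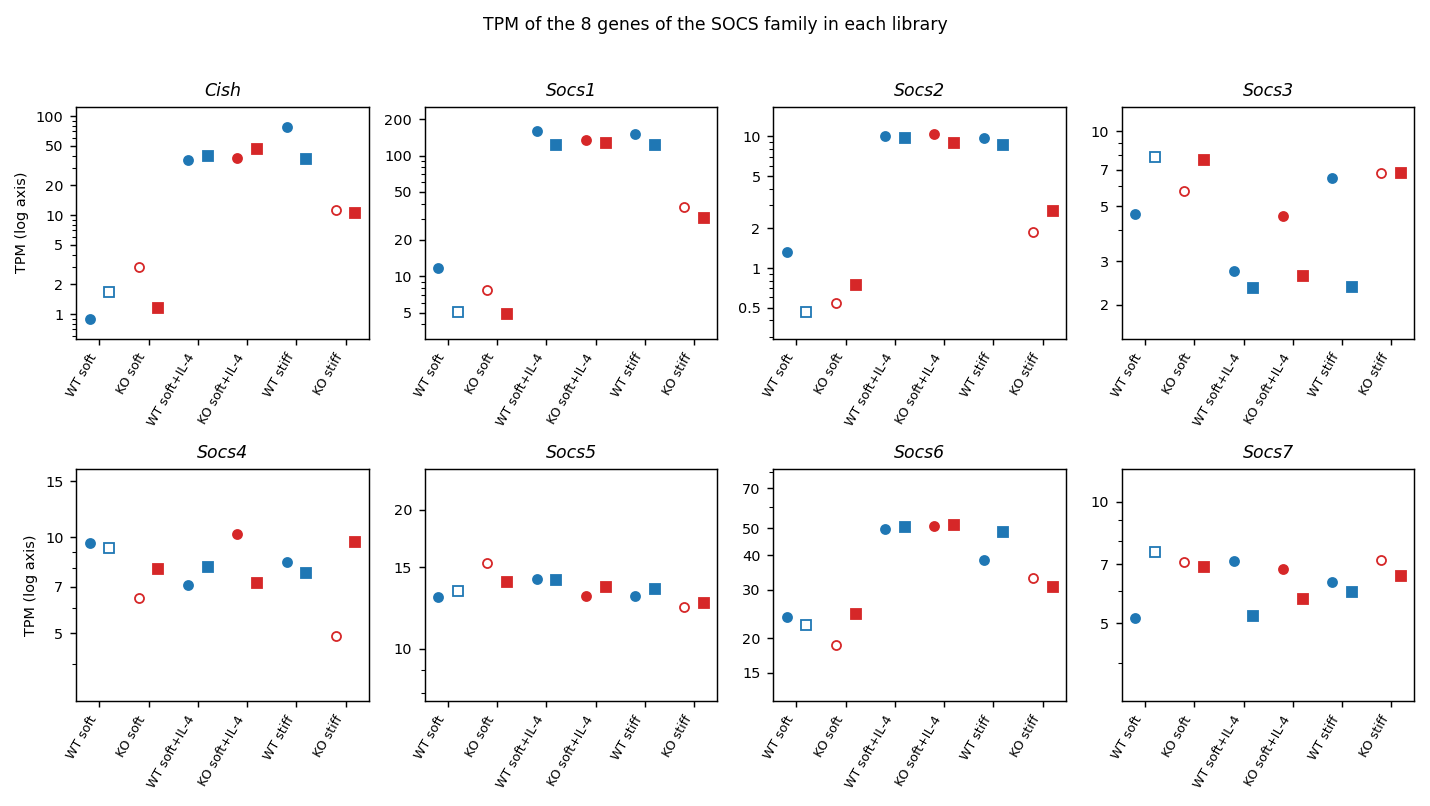
TPM on a log axis of the 8 genes of the SOCS family in the 12 libraries, with symbols as in the plot of the 10 genes. Cish, Socs1, Socs2 and Socs6 are higher in soft+IL-4 than in soft, Socs3 is lower, and Socs4, Socs5 and Socs7 overlap.

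Other genes of cytokine receptor signalling were taken from lists of receptor chains, kinases and adaptors, STATs and suppressors, of which 46 of 53 could be tested. Il4 and Il13, the ligands, and the decoy receptor Il13ra2 were not among the genes analysed here. With IL-4, 4 of the 46 rose and 2 fell, 13.0% against 4.35% of all genes, and the median log2 fold change was −0.06 against −0.05 over all genes. Beside Socs2 and Socs6 these were Il6st (1.34 ± 0.11, adjusted p = 4.15e-05), which encodes gp130, and Csf2rb (1.12 ± 0.06, adjusted p = 4.46e-06), the common beta chain of the IL-3 and GM-CSF receptors. Il10ra, a chain of the IL-10 receptor, fell by 1.13 on the log2 scale (adjusted p = 1.21e-05), and Pik3cg, a catalytic subunit of PI3 kinase, fell by 1.03 (adjusted p = 0.00424). Pik3cg was not called without WT soft 2 (−0.98) or KO soft 2 (−0.95), nor without the 3 libraries (adjusted p = 0.0796 by limma).

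In WT stiff, 2 of the 46 rose (Socs2 and Il6st) and 3 fell, 10.9% against 3.97% of all genes, with medians of −0.0031 and 0.0156. Among those that fell were the phosphatase gene Ptpn6 (−1.21 ± 0.18, adjusted p = 0.00282) and Il10ra (−1.04 ± 0.11, adjusted p = 0.000389). Ptpn6, which encodes SHP-1, was at 108 and 177 TPM against 317 to 330 TPM in soft. Without WT stiff 1 the change of Ptpn6 was −0.86, and without WT stiff 2 those of Il6st and Il10ra were 0.73 and −0.92, so that each was then under 2-fold and not called. Without WT soft 2 the values of Il6st (0.97) and Il10ra (−0.97) were under 2-fold as well, and 1 gene rose and 1 fell. Without WT stiff 1, 4 rose and 2 fell, and without the 3 libraries 1 rose and 0 fell. In KO stiff none of the 46 was called, 0.0% against 0.0447%. Between the genotypes on the stiff gel 3 of the 46 were called, among them Socs2 lower and Ptpn6 higher in KO (1.06 ± 0.18, adjusted p = 0.0105), 6.52% against 1.98% of all genes. The difference of Ptpn6 was 0.71 and not called without WT stiff 1, and it was not called without KO stiff 1 (adjusted p = 0.0768 by limma) or KO stiff 2 (adjusted p = 0.0794). Of the 46, the number called was 0 without KO stiff 1 or without the 3 libraries, 1 without KO stiff 2 or WT stiff 1, and 6 without WT stiff 2.

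The genes that STAT6 is known to switch on in macrophages gave a downstream view. This list of 26 genes was written with knowledge of IL-4 responses and is not independent of the direction. Of the 25 tested, 18 rose and 0 fell with IL-4 (median log2 fold change 2.44), 18 rose in WT stiff (median 2.39), 2 rose in KO stiff, Irf4 and Il4i1 (median 1.15), and 11 were lower in KO than in WT on the stiff gel (median −1.33), while the medians over all genes lay between −0.05 and 0.02. These counts moved with single libraries. In WT stiff 12 rose without WT soft 1, 11 without WT soft 2 and 8 without the 3 libraries that go against their Camkk2 label. In KO stiff 8 rose without either WT stiff library, 1 without any one KO or WT soft+IL-4 library, and 0 without the 3 libraries. Between the genotypes on the stiff gel 4 were lower in KO without either KO stiff library, 6 without any one soft+IL-4 library, 16 without WT stiff 2 and 1 without the 3 libraries. Irf4 lost its call in KO stiff without any one KO or WT soft+IL-4 library (adjusted p = 0.0567 to 0.233), and both Irf4 and Il4i1 lost it without the 3 libraries.

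The largest rises with IL-4 among the called target genes were those of Arg1, Chil3, Retnla and Mgl2, at 4.87 ± 1.37, 4.63 ± 0.53, 4.61 ± 0.32 and 4.29 ± 0.25. Arg1, which encodes arginase, had an adjusted p of 0.0303 with IL-4 and kept its call without WT soft+IL-4 2 (5.51) or either stiff library of either genotype. It lost its call without WT soft+IL-4 1 (4.24, adjusted p = 0.112) or any other one of the soft and soft+IL-4 libraries (adjusted p = 0.0698 to 0.0956), and also without the 3 libraries (adjusted p = 0.239). The same 4 genes led in WT stiff, at 7.85 ± 1.93, 5.81 ± 0.75, 5.40 ± 0.45 and 4.97 ± 0.35. Arg1 was at 8850 TPM in WT stiff 1 and at 42.6 TPM in WT stiff 2, and its rise was 4.02 without WT stiff 1 and 11.7 without WT stiff 2. Its call in WT stiff was lost without any one WT soft, KO soft or KO soft+IL-4 library (adjusted p = 0.0536 to 0.155) and without the 3 libraries (adjusted p = 0.309). The other 3 genes stayed called without either WT stiff library, with Chil3 at 4.71 without WT stiff 1 and 6.91 without WT stiff 2, Retnla at 4.68 and 6.12, and Mgl2 at 4.27 and 5.67. Chil3 was at 6.62 without WT soft 1 and at 5.01 without WT soft 2, and it was not called without the 3 libraries (adjusted p = 0.0543).

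On the stiff gel Chil3, Slc7a2, Retnla and Mgl2 had the largest differences among the target genes called as lower in KO, at −3.10 ± 0.75, −2.76 ± 0.58, −2.67 ± 0.45 and −2.29 ± 0.35. Without WT stiff 1 they were −1.998, −1.70, −1.95 and −1.59, of which Chil3 was not called (adjusted p = 0.130 by limma), and without WT stiff 2 they were −4.20, −3.81, −3.39 and −2.99, all called. None of the 4 was called without KO stiff 1 or without KO stiff 2 (adjusted p = 0.0566 to 0.246), and none without the 3 libraries (adjusted p = 0.144 to 0.228). Chil3 and Slc7a2 were not called without any one soft+IL-4 library (adjusted p = 0.0539 to 0.0861), nor was Chil3 without either KO soft library.

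The genes whose log2(TPM + 1) followed each member most closely over the 12 libraries are given as a description, since the libraries share conditions and form groups. For Socs1 they were Tmem26 (r = 0.992), Flt1 (r = 0.991) and Bhlhe40 (r = 0.991). For Cish they were Mgl2 (r = 0.994), Tarm1 (r = 0.993) and Pdcd1lg2 (r = 0.991). For Socs3 they were Ncor1 (r = 0.968), Klf13 (r = 0.962) and Pygb (r = 0.956), and among the members Stat6 followed Socs3 with r = 0.96. For Il4ra they were Adrbk2 (r = 0.977), C1qa (r = 0.976) and Abca1 (r = 0.968). Against Socs1, Il13ra1 had the most negative r of the members, at −0.93.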

How the data were processed

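The authors deposited 1 table of TPM values, produced per the labels with Trim Galore 0.6.7 and Salmon 1.4.0 on mm10, whereas the methods of the study name STAR and featureCounts for RNA-seq, so the exact route to the values is not settled. TPM keep no read counts, so depth is unknown and counting error cannot be given. The library preparation kept the strand, and 0 columns of the table were unused. Groups were taken from the sample labels. A gene entered the tests when 2 or more of the 12 libraries had 1 TPM or more, which left 11194 genes, and their log2(TPM + 1) was fitted with limma 3.58.1 in R 4.3.3, as 1 mean per group with a variance trend and without covariates, with Benjamini-Hochberg adjustment over all genes tested in a comparison. Called genes had a change of 1 or more on the log2 scale in either direction together with an adjusted p under 0.05. With 2 biological replicates per group, all groups shared 1 estimate of the spread for each gene, which limma moved toward a trend over all genes. A p-value of 2 against 2 libraries therefore rests also on the spread within the other groups and of other genes. Exact permutation tests used scipy 1.17.1. Code was tested on simulated data.

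The members and lists were chosen with earlier results of these data known. All 10 members were named. Of the other pathway genes and of the STAT6 target genes, at most the 4 largest rises and 4 largest falls among the called genes were named in the IL-4, WT stiff and stiff-genotype comparisons, with the 3 genes most like Socs1, Cish, Socs3 and Il4ra. Socs4, Socs5, Socs7, Cd2, and Irf4 and Il4i1 in KO stiff are outside this rule, having been picked once the values were known, as were further values of the named genes. Alternatives were a pseudocount of 0.1, no filter, median-of-ratios scaling, only the libraries compared, no limit on the fold, an adjusted p under 0.1, a block for the replicate number, each library left out, and the 3 libraries whose Camkk2 goes against the label left out. Leaving out libraries was extended to the pathway and STAT6 target genes after seeing the data. Positions come from GENCODE vM21 on GRCm38 (mm10). Amino acid sequences were not used here. The values of 1 pathway gene that was called are not reported here.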

Additional observations from a re-analysis of the deposited data

How the results depend on the processing

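Of 1600 single-gene values over 80 results and 20 alternatives, 1564 stayed on their side of the threshold, 13 lost a call, 23 gained one and 0 turned direction with a call. Most of the 80 results were not called, and many lay far below the 2-fold limit. The share that stayed is therefore no measure of how stable the calls are. Socs1 and Cish were called under all 20 alternatives with IL-4 (average and each genotype) and in the average of stiff against soft. With no limit on the fold, 5 members were called with IL-4, Stat6 and Socs3 added, while 2567 of the 11194 genes were called. With only the libraries compared, 0 members were called in WT stiff against soft and 0 between genotypes on the stiff gel. Without the 3 libraries that go against their Camkk2 label, 1 was called between genotypes on the stiff gel. At an adjusted p under 0.1, 1 was called in KO stiff against soft, where 10 of the 11194 genes were. In the stiff response between genotypes 1 was called as well, where 116 of all genes were.

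The replicate numbers were not used as pairs in the main comparisons, since the labels do not say what a number shares, and the deviations of equal numbers correlated at −0.053 to 0.314 over 15 pairs of groups, with 3 above 0.1. The numbers did differ in the share of genes listed at 0 TPM. It was 10.7 to 13.4% in the libraries numbered 1 and 5.9 to 7.54% in those numbered 2, and the reason was not tested. With the replicate number as a block, 1 member, Socs1, was called in KO stiff against soft (adjusted p = 0.00784) and 1 in the stiff response between genotypes (Socs1, adjusted p = 0.0356). With each library left out in turn, 0 to 2 members were called in KO stiff against soft, 0 to 1 in WT stiff against soft+IL-4, 0 to 3 between genotypes on the stiff gel and 0 to 3 in the stiff response between genotypes. The count over all genes was more sensitive: without WT stiff 2 it was 1108 in WT stiff against soft (444 with it), 1009 between genotypes on the stiff gel (222) and 894 in the stiff response between genotypes (75). Without the 3 libraries these counts were 131, 20 and 2, and with IL-4 106 in WT (421) and 181 in KO (409).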
